A study of Mus musculus with 23 samples.

Results

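The effect of urolithin A on the hippocampus of 3xTg-AD mice was examined in 10 of the 23 mice of the series, 5 given urolithin A and 5 given vehicle. The 10 mice were chosen by their labelled genotype and treatment and by no measured value. All 748 genes with values were considered, and 619 of them were high enough to be tested. Both groups carried the transgene Tg(APPSwe,tauP301L)1Lfa, which encodes human amyloid precursor protein (Swedish mutation) and human tau (P301L), and the mutant presenilin allele Psen1tm1Mpm, on the strain C57BL6/J. All were 18 months old. The treated group was gavaged with urolithin A over 5 months, at a daily dose of 200 mg/kg, and the other group received vehicle. The treated group held 2 females (replicates 2 and 5) and 3 males (replicates 1, 3 and 4), and the vehicle group held 3 females (replicates 1, 2 and 3) and 2 males (replicates 4 and 5). Levels in 4 wild-type C57BL6/J mice of the same age on vehicle, 2 of each sex, are given beside some results as a reference only. No label gave the promoter of the transgene, or said which mice shared a litter or cage, and labelled sex was not checked against expression.

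Urolithin A is a compound that gut bacteria make from the ellagitannins of some fruits and nuts, and it is known for inducing mitophagy, the removal of damaged mitochondria through autophagosomes and lysosomes. Microglia, the macrophages of the brain, take up amyloid and cell debris, digest them with lysosomal enzymes such as the cathepsins, and present antigen on MHC molecules. The panel measured genes of energy metabolism, autophagy and lysosomes beside a large set of immune genes, so the same RNA gave a reading of mitochondrial fuel use and of these cells.

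Values are log2 of normalised counts from an nCounter panel, an assay that counts colour-coded probes bound to each transcript without amplification, and a difference of 1 on this scale is a 2-fold change. Total counts inferred for the 10 mice ran from 428527 to 664877, and a normalised count of 20 stood for 16.9 to 26.8 counted molecules. Glul, Mapt and Grin1, genes of astrocytes and neurons, were high in all 10 mice, with lowest values of 13.48, 10.09 and 9.71.

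Among the 10 mice, 2 males stood apart from the rest. Adora2a, an adenosine receptor gene, stood at 10.87 in vehicle replicate 5 and 9.66 in treated replicate 4, against 3.23 to 5.05 in the other 21 mice of the series. Ptpn5, a tyrosine phosphatase gene, stood at 11.82 and 11.13 in the same mice and at 9.34 to 10.11 in the other 21. In the brain both genes are known chiefly from the striatum. Vehicle replicate 5 was also the highest of the 10 mice for 230 of the 619 genes, while no other mouse was the highest for more than 92. These genes were picked after their values were seen, and whether the dissected tissue differed in these mice was not tested. Results are therefore given both with all 10 mice and with these 2 left out.

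A separate set of mice carried high levels of choroid plexus genes. Ttr, the gene of transthyretin, which choroid plexus epithelium makes in bulk, stood at 11.28 in vehicle replicate 3 and at 11.37, 13.09 and 12.07 in treated replicates 1, 3 and 5. The remaining AD mice had 4.12 to 7.08. Folr1, a folate receptor gene of the same epithelium, ran from 7.46 to 8.99 in these 4 mice and stood at 3.46 to 4.87 in the other 6. The treatment groups overlapped for both genes, and the differences of 1.99 ± 1.87 (SE) for Ttr and 1.68 ± 1.23 for Folr1, the largest differences above 0 among tested genes, missed the threshold (limma adjusted p = 0.932 for each).

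**Figure D1:**
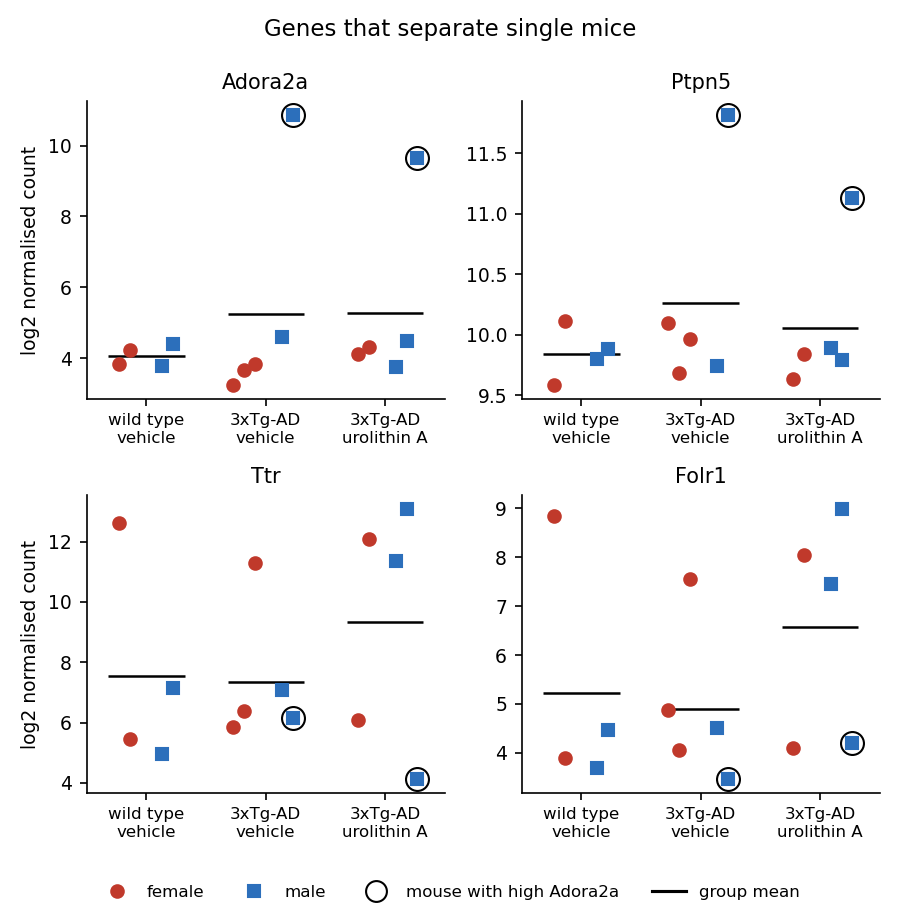
Values of Adora2a, Ptpn5, Ttr and Folr1 in each wild-type and 3xTg-AD mouse (log2 of normalised counts). Circles are females, squares males, black lines group means, and black rings mark vehicle replicate 5 and treated replicate 4, at 10.87 and 9.66 for Adora2a.

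Over all 10 mice, no gene passed the threshold for a rise or a fall with urolithin A. Limma called 0 of 619 genes higher (0.0%) and 0 lower (0.0%) at an adjusted p of 0.05, the smallest adjusted p was 0.932, and no gene had all 5 treated mice above (0.0%) or all 5 below (0.0%) the 5 vehicle mice. At an unadjusted p under 0.05 there were 19 genes higher (3.07%) and 2 lower (0.323%). The exact permutation test over all 252 splits of the 10 mice called 0 after adjustment. Its smallest possible p is 0.0079. A call over 619 genes would need many genes at that floor, so this 0 adds little to the limma result. The difference was above 0 for 447 genes and below 0 for 168, with a median of 0.07. The 95% interval of the difference lay within 1 log2 of 0 in either direction for 82.7% of genes, with a median half-width of 0.32.

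The genes with the smallest p over all mice included several of glucose use. Pdk1, a kinase that inhibits pyruvate dehydrogenase and so limits entry of pyruvate into the TCA cycle, stood at 8.36, 8.07, 8.28, 8.15 and 7.76 in vehicle replicates 1 to 5 and at 8.34, 8.39, 8.41, 8.21 and 8.49 in treated replicates 1 to 5. Only vehicle replicates 1 and 3 reached the range of the treated mice, and all 4 wild-type mice lay higher, at 8.57 to 8.77. The difference was 0.24 ± 0.09 (SE; limma adjusted p = 0.932). Without vehicle replicate 5, the lowest of the 10 mice, it was 0.15.

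Slc16a7, the gene of a monocarboxylate transporter that carries lactate and pyruvate into neurons, had 7.57, 7.71, 7.76, 7.87 and 7.45 in vehicle replicates 1 to 5. Treated replicates 1 to 5 had 7.97, 7.68, 7.99, 8.10 and 7.96, so that all treated mice but replicate 2 lay above every vehicle mouse. The difference was 0.27 ± 0.10 (adjusted p = 0.932). Pgk1, a glycolytic kinase gene, ran from 9.46 to 9.98 on vehicle and from 9.83 to 10.11 on urolithin A, and Idh3a, a subunit of isocitrate dehydrogenase of the TCA cycle, from 11.03 to 11.51 and from 11.42 to 11.65. In both genes vehicle replicate 5 was the lowest mouse, and without it the differences moved from 0.22 to 0.14 and from 0.17 to 0.08.

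Mpc1, which encodes part of the carrier that brings pyruvate into mitochondria, ran from 9.73 to 9.91 in treated mice. Vehicle replicates 1, 2 and 4 lay below that range (9.51, 9.58 and 9.55), and replicates 3 and 5 within or above it (9.78 for replicate 3). None of these genes passed the threshold, with or without the 2 mice that stood apart.

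**Figure D2:**
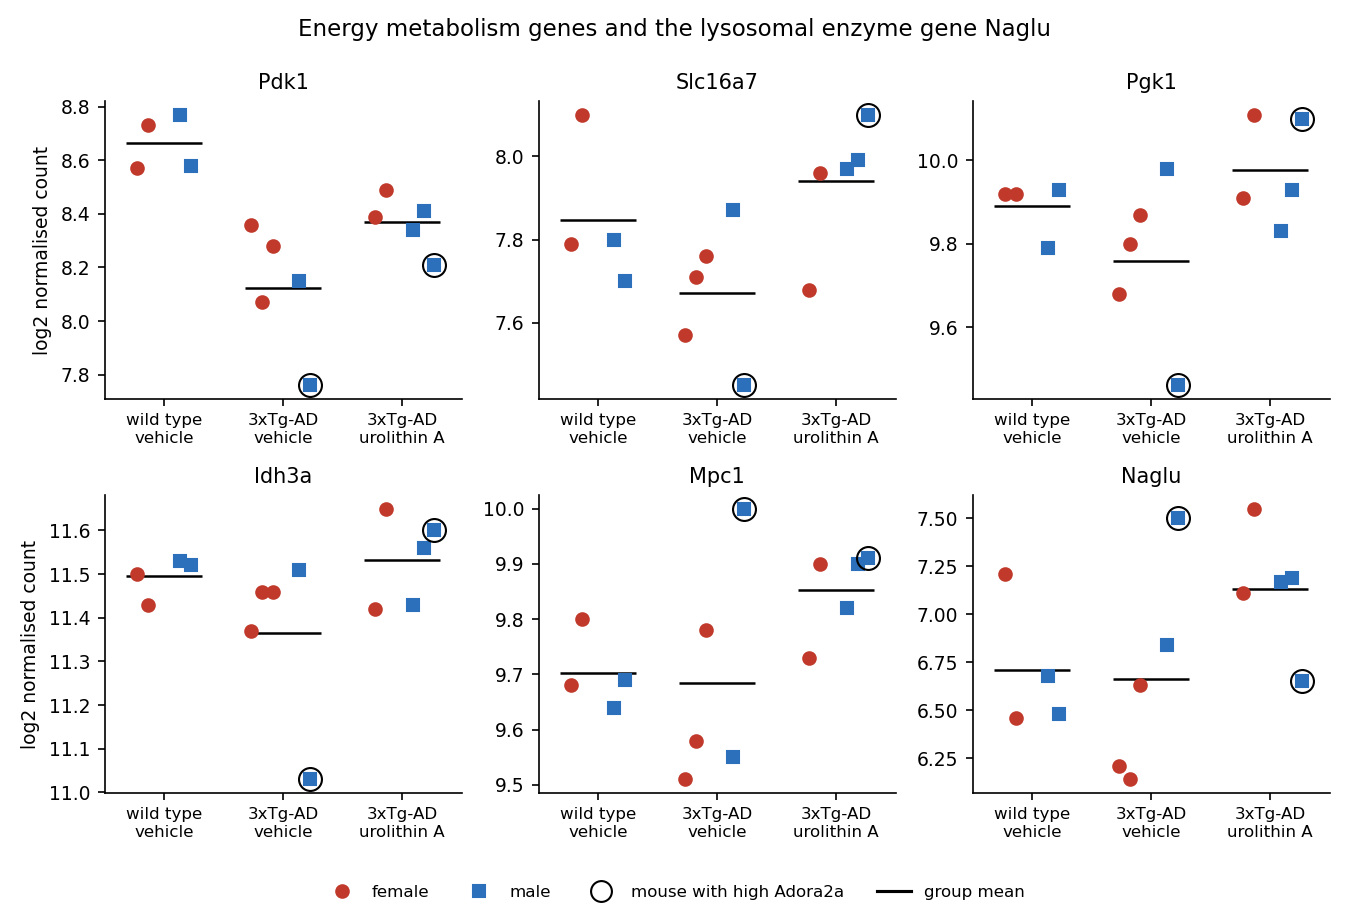
Values of Pdk1, Slc16a7, Pgk1, Idh3a and Mpc1, genes of glucose, lactate and pyruvate use, and of the lysosomal enzyme gene Naglu in each mouse (log2 of normalised counts), drawn as circles for females, squares for males and lines for group means. The ringed vehicle male is the lowest mouse for Pdk1 (7.76), Pgk1 (9.46) and Idh3a (11.03) and the highest for Mpc1.

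Other genes among the 20 of smallest p came from several processes. Cdc20, an activator of the anaphase-promoting complex, ran from 2.25 to 2.95 on vehicle and from 2.85 to 4.34 on urolithin A, where treated replicate 1 was the only treated mouse within the vehicle range. These values are among the lowest tested. Lepr, the leptin receptor gene, ran from 4.80 to 6.38 and from 6.21 to 7.46, with a difference of 1.2 ± 0.46 that became 0.83 ± 0.31 with the Ttr level as a covariate.

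Apoc3, a lipoprotein component, had the difference furthest below 0, -0.92 ± 0.35 (adjusted p = 0.932). It stood at 5.91, 4.62, 5.50, 5.47 and 4.23 in vehicle replicates 1 to 5 and at 4.59, 4.44, 3.71, 4.36 and 4.03 in treated replicates 1 to 5. Vehicle replicate 5 was the only vehicle mouse within the treated range, and wild-type mice had 3.66 to 4.17. The treated and wild-type values lie near or below the normalised count of 20 used as the filter. The related gene Apoa2 differed by -0.58 ± 0.31 and Folh1, which encodes the enzyme that cleaves N-acetylaspartylglutamate, by -0.53 ± 0.22. Leaving out 1 mouse moved them between -0.84 (without vehicle replicate 5) and -0.32 (without vehicle replicate 1) for Apoa2, and between -0.64 (without vehicle replicate 3) and -0.32 (without vehicle replicate 5) for Folh1. With both mice high in Adora2a left out, Folh1 differed by -0.22.

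Among the genes that bear on mitophagy and the transgenes, none passed. Sqstm1, the autophagy receptor p62, ran from 11.61 to 11.77 on vehicle and from 11.67 to 11.84 on urolithin A. Ppargc1a, a coactivator of mitochondrial biogenesis, ran from 8.72 to 9.19 and from 8.94 to 9.14. Mapt, the tau gene, ran from 10.16 to 10.74 and from 10.09 to 10.60, and wild-type mice lay lower, at 9.74 to 9.85. The differences were 0.07 ± 0.06, 0.13 ± 0.11 and -0.11 ± 0.15, and the groups overlapped in each. Leaving out 1 mouse moved Ppargc1a between 0.08 (without vehicle replicate 1) and 0.20 (without vehicle replicate 5), and Mapt between -0.19 (without treated replicate 2) and -0.03 (without vehicle replicate 4). Of the 8 tested autophagy and mitophagy genes, the median difference was 0.06, close to the 0.07 of all tested genes, and that of Sqstm1 changed sign under some scalings.

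With vehicle replicate 5 and treated replicate 4 left out, limma again called 0 genes over all mice, and the smallest adjusted p was 0.185, for Naglu. The number at an unadjusted p under 0.05 was then 72 higher (11.6%) and 2 lower (0.323%). All 4 treated mice lay above all 4 vehicle mice in 54 genes (8.72%) and below them in 3 (0.485%). The choice of the 2 mice bears on this direction. Vehicle replicate 5 was the highest of the 10 mice for 230 genes and the lowest for 111. Treated replicate 4 was the lowest for 80 and the highest for 87. By the mean of the lysosome genes they were the highest vehicle mouse (8.73) and the lowest treated mouse (7.93). The same held for the mean of the microglia markers (9.35 and 7.38). Leaving them out therefore raises the difference of both means. Naglu, which encodes a lysosomal enzyme that degrades heparan sulphate, ran from 6.14 to 6.84 in the 4 vehicle mice and from 7.11 to 7.55 in the 4 treated mice, a difference of 0.80 ± 0.18. In the 2 mice left out it stood at 7.50 on vehicle and 6.65 on urolithin A, so that the order of the groups held only among the 8.

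The genes with this order, a list chosen after the values were seen, included 4 of 13 tested lysosome genes (Naglu, Ctsd, Ctsz and Ctsw) and 4 of 12 of NF-kB and innate receptor genes. Microglia and macrophage markers had 3 of 8, and disease-associated microglia 2 of 4, which were Ctsd and Ctsz again. Other lists had like shares, with 3 of 9 fatty acid oxidation genes, 3 of 10 cell cycle genes and 2 of 7 pentose phosphate genes. Lower shares were found in mitochondrial respiration (3 of 32), PI3K-AKT, MAPK and mTOR signalling (2 of 38), autophagy and mitophagy (0 of 8) and glycolysis (0 of 20). The share over all tested genes was 8.72%. The order was thus neither particular to lysosome and innate receptor genes nor even across lists. Ctsz, a cathepsin gene of microglia, ran from 8.34 to 8.87 in the 4 vehicle mice and from 9.22 to 10.14 in the 4 treated mice. The left-out mice stood at 10.47 on vehicle and 8.89 on urolithin A, the reverse order. Over all 10 mice its difference was 0.45 ± 0.37, and over the 8 it was 0.96 ± 0.33 (limma adjusted p = 0.29).

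In females, 31 genes rose with urolithin A (5.01% of 619) and 0 fell (0.0%), by 0.285 to 2.95 log2 (limma, 2 treated against 3 vehicle females, spread estimated over all 23 mice). They include genes known from microglia and other myeloid cells, among them Cd68, a lysosomal membrane protein of macrophages, the Toll-like receptor genes Tlr2 and Tlr7, the lipopolysaccharide co-receptor gene Cd14, the integrin subunit gene Itgb2, the leukocyte phosphatase gene Ptprc, the chemokine gene Ccl2, and the MHC genes H2-K1 and H2-Eb1. The female contrast does not use the means of the 2 mice that stood apart, which enter only its estimate of spread, and without them 43 genes rose (6.95%), the 31 among them.

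Bcl2a1a, a survival gene of the Bcl2 family in leukocytes, had the smallest p. It stood at 5.18, 5.09 and 5.39 in the vehicle females and at 7.54 and 7.77 in the treated females, a rise of 2.44 (adjusted p = 0.0114). The treated females lay over 2 log2 above every vehicle female and also above both wild-type females, at 6.40 and 5.73. Mice have near-identical copies of this gene, and which of them the probe detects is not given in the sources used here.

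Cd68 stood at 7.11, 6.86 and 7.23 in vehicle females and at 8.80 and 8.93 in treated females, a rise of 1.80 (adjusted p = 0.0259). Tlr2, a receptor for bacterial lipoproteins and for amyloid, stood at 3.78, 4.25 and 4.42 and at 6.21 and 6.45, a rise of 2.18 (adjusted p = 0.0259). Cd14 stood at 4.64, 4.67 and 4.92 and at 6.67 and 6.53, a rise of 1.86 (adjusted p = 0.0259). In each of these genes the sexes of the treated group separated, since the 3 treated males lay below both treated females. The Tlr2 values of the vehicle females lie near the normalised count of 20 used as the filter.

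The lysosomal genes among the 31 followed the same order. Gusb, which encodes beta-glucuronidase, stood at 6.55, 6.56 and 6.61 in vehicle females and at 7.44 and 7.57 in treated females, a rise of 0.93 (adjusted p = 0.0259). Naglu stood at 6.21, 6.14 and 6.63 and at 7.11 and 7.55, a rise of 1.00 (adjusted p = 0.0367). Ctsd, the gene of the main aspartic protease of lysosomes, stood at 11.43, 11.51 and 11.78 and at 12.65 and 13.14, a rise of 1.32 (adjusted p = 0.0408). The wild-type females had 7.26 and 6.68 for Gusb, 7.21 and 6.46 for Naglu, and 12.60 and 11.65 for Ctsd. For Naglu the higher of them lay within the range of the treated females, and for Ctsd just below it. Of the 13 tested lysosome genes 5 rose in females, where 5.01% of all tested genes did. The difference was above 0 in all 13, as it was in 80.3% of all tested genes (497 of 619), with a median of 0.93 against 0.15 for all tested genes.

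Of the 8 tested microglia and macrophage markers, which include Cd68, Cd14 and Tlr2, 5 rose in females, and the median difference was 1.51. With the 2 mice that stood apart left out of the spread, 7 rose. Slc2a5, a fructose transporter gene of microglia outside this list, had the opposite sign in females (-0.52, limma adjusted p = 0.782). Antigen presentation had 3 of 8 genes up in females (median 1.19), beside 5.01% of all tested genes with a median of 0.15. NF-kB and innate receptors had 4 of 12 (median 0.72), and interferon and cytokine signalling 2 of 10 (median 0.72). With those 2 mice left out, the counts were 6 of 13 lysosome genes, 4 of 8, 6 of 12 and 3 of 10, beside 6.95% of all tested genes. H2-Eb1, an MHC class II chain, stood at 4.95, 4.47 and 4.83 in vehicle females and at 6.38 and 7.12 in treated females, a rise of 2.0 (adjusted p = 0.0367). H2-Aa, another class II chain, stood at 6.73, 5.57 and 6.10 and at 8.40 and 8.84, a difference of 2.49 that missed the threshold (adjusted p = 0.0659). The wild-type females had 6.70 and 5.51 for H2-Eb1 and 8.75 and 7.23 for H2-Aa. In both genes the higher of them, which had no urolithin A, lay within the range of the treated females. MHC class I genes such as H2-K1 have close copies, and probe sequences were not used here.

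No gene of mitochondrial respiration (32 tested), of the pyruvate and TCA cycle group (17), of glycolysis (20) or of fatty acid oxidation (9) passed in females, with medians of 0.05, 0.13, 0.07 and 0.21. Hmox1, the haem oxygenase gene, was the 1 gene of 20 in the oxidative stress list that rose in females, from 5.18, 5.78 and 5.72 to 6.61 and 6.84. Apoc2, an activator of lipoprotein lipase, rose by 1.75 from 3.37, 2.47 and 2.42 to 4.39 and 4.62, values near the normalised count of 20 used as the filter.

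The female result rests on few mice. The count was 0 genes without treated replicate 2, treated replicate 5 or vehicle replicate 2, 1 without vehicle replicate 3, 6 without vehicle replicate 1, 19 without treated replicate 3, and 1 with only the 10 AD mice in the fit. An exact test of 2 against 3 mice cannot go below p = 0.1. Over all 619 genes both treated females lay above all 3 vehicle females in 34.7%, and below them in 3.07%. In bulk tissue, more cells of a type and more RNA per cell cannot be told apart.

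**Figure D3:**
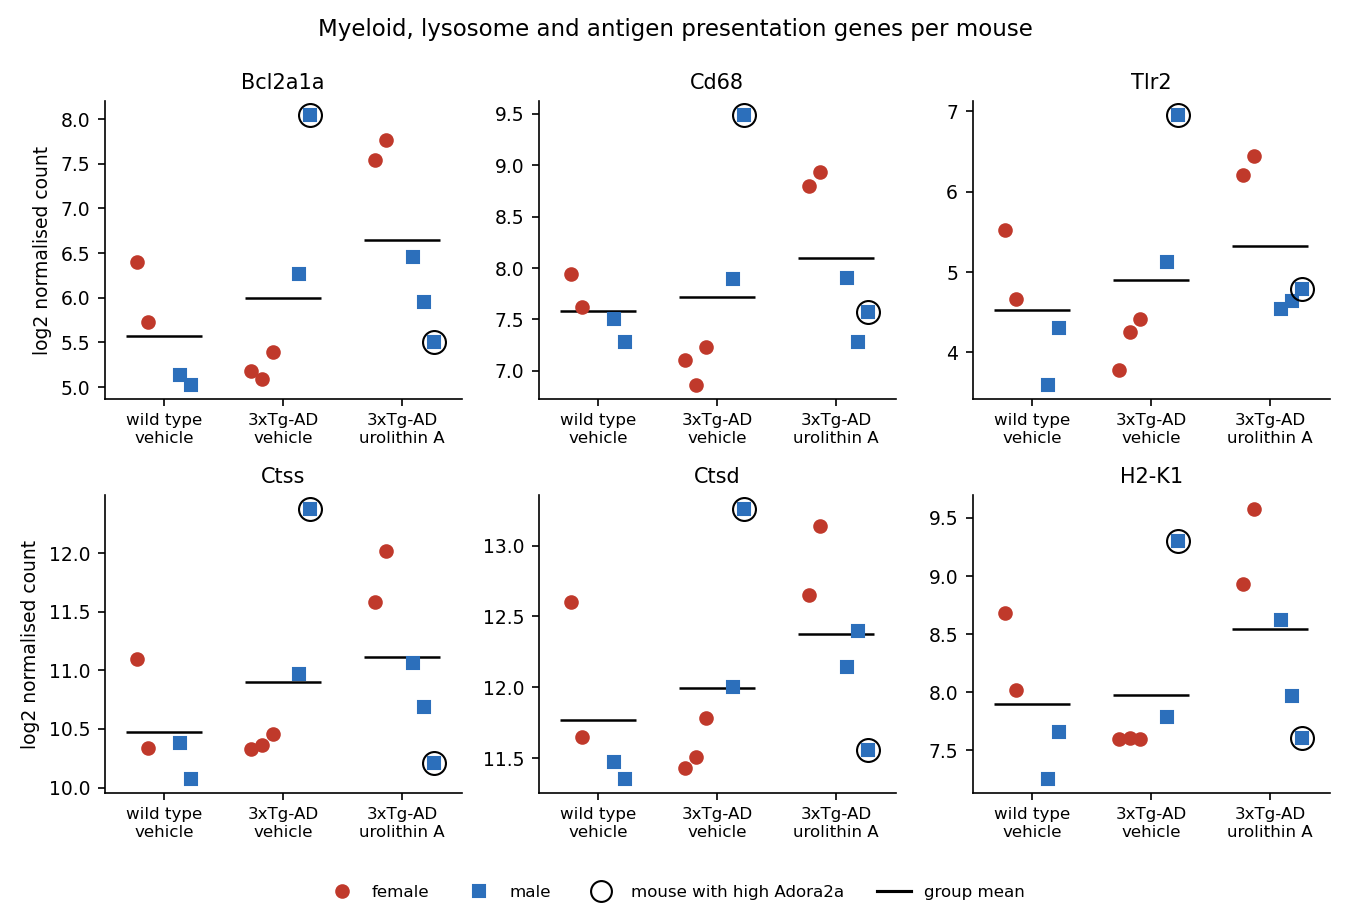
Values of the myeloid genes Bcl2a1a, Cd68 and Tlr2, the cathepsin genes Ctss and Ctsd and the MHC gene H2-K1 in each mouse (log2 of normalised counts), with females as circles, males as squares and group means as lines. In each gene the treated females lie above the vehicle females, and the ringed vehicle male lies far above the other vehicle mice, at 8.05 for Bcl2a1a and 9.49 for Cd68.

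In males no gene passed. Limma called 0 genes higher (0.0%) and 0 lower (0.0%) between 3 treated and 2 vehicle males, with a smallest adjusted p of 0.385, and at an unadjusted p under 0.05 there were 17 higher (2.75%) and 38 lower (6.14%). The 2 vehicle males differed widely from each other. Cd68 stood at 7.89 and 9.49 in vehicle replicates 4 and 5 and at 7.90, 7.28 and 7.57 in treated replicates 1, 3 and 4. Ctss, the gene of cathepsin S, a protease of microglia, stood at 10.97 and 12.38 and at 11.06, 10.69 and 10.21. Vehicle replicate 4 lay within the range of the treated males in both genes, and replicate 5 more than 1 log2 above them. Leaving out either of them sets 3 treated males against 1 vehicle male, which is assumed to vary like the other mice. The count was 93 genes (24 higher, 69 lower) with replicate 5 as that 1 male and 0 with replicate 4.

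The effect of urolithin A differed between the sexes in 36 genes, all with a larger value in females (5.82%), and in none the other way (0.0%). The difference of the effects ran from 0.397 to 4.53 log2. In these 36 genes the median effect was 1.42 in females and -0.77 in males. Of them 27 (75.0%) were also among the 31 genes that rose in females, of which they made up 87.1%. The female effect is part of the difference and comes from the same 5 females, so this overlap is in part built into the comparison. The 4 that rose in females without passing for the difference were Ptges, Naglu, H2-Eb1 and Irf1.

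For Bcl2a1a the effect was 2.44 in females and -1.19 in males, a difference of 3.63 ± 0.58 (adjusted p = 0.00632). The males stood at 6.27 and 8.05 on vehicle and at 6.46, 5.95 and 5.50 on urolithin A. For Tlr2 the difference was 3.56 ± 0.64 (adjusted p = 0.00864), with males at 5.12 and 6.96 on vehicle and 4.54, 4.64 and 4.79 on urolithin A. For Cd68 it was 2.91 ± 0.51 (adjusted p = 0.00864). All 3 genes had a treated female pair above the vehicle females and a vehicle replicate 5 above every other mouse.

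That order was shared by most of the 36 genes. They were chosen on these same values, so it is in part built into the choice. Both treated females lay above all 3 vehicle females in 36 of 36 (34.7% of all tested genes), and all 3 treated males lay below both vehicle males in 15 (9.21% of all tested genes). Vehicle replicate 5 was the highest vehicle mouse in 35 and the highest of all 10 mice in 26, as it was in 230 of all 619 tested genes. Vehicle replicate 4, the other vehicle male, lay above all 3 vehicle females in 34 of the 36 and above all 3 treated males in 15. For replicate 4 the matching shares over all tested genes were not counted, so these values only describe the 36 genes.

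The difference between the sexes depended on single mice. Without vehicle replicate 5 only 2 genes passed (Bcl2a1a and Cd68), and without it and treated replicate 4 only 1 (0.162%), Bcl2a1a. Each fit without vehicle replicate 4 or 5 leaves 1 vehicle male. Vehicle replicate 5 and treated replicate 4 are males, so leaving them out cannot change the effect in females for any of the 36 genes. The effect in males without them had a median of -0.10, with 11 genes above 0 and 24 below. The count was 0 without treated replicate 5, 125 without vehicle replicate 4, and 23, 19, 23 and 21 without vehicle replicate 1, vehicle replicate 2, treated replicate 3 and treated replicate 4. Permuting treatment within each sex, 100 arrangements in all, gave exact p from 0.01 to 0.05 for the 36 genes, where 0.01 is the smallest possible. After adjustment 0 of 619 passed, but passing would need many genes at that floor.

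The genes of the difference follow a few roles. By the lists, 6 of the 8 microglia markers, 5 of 13 lysosome genes, 5 of 12 genes of NF-kB and innate receptors and 2 of 8 antigen presentation genes passed, beside 5.82% of all tested genes. So did 3 of 11 genes of lipid synthesis and lipoproteins, 2 of 10 of interferon and cytokine signalling and 1 in each of 4 other lists. Of the 18 genes of the disease-associated microglia list 4 were tested, and all 4 passed. The lists share genes, such as Ctsd and Ctsz with the lysosome list and Cd14 between microglia and innate receptors, so these counts are not separate. None passed of the 32 respiration, 17 pyruvate and TCA cycle and 20 glycolysis genes. Apoe, the gene of the main lipoprotein of the brain, stood at 12.85, 12.74 and 12.79 in vehicle females and at 13.60 and 13.55 in treated females, and at 12.93 and 13.99 in vehicle males and 13.17, 12.87 and 12.29 in treated males. Its difference between the sexes was 1.47 ± 0.36 (adjusted p = 0.022), while over all 10 mice treated and vehicle means differed by 0.04.

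**Figure D4:**
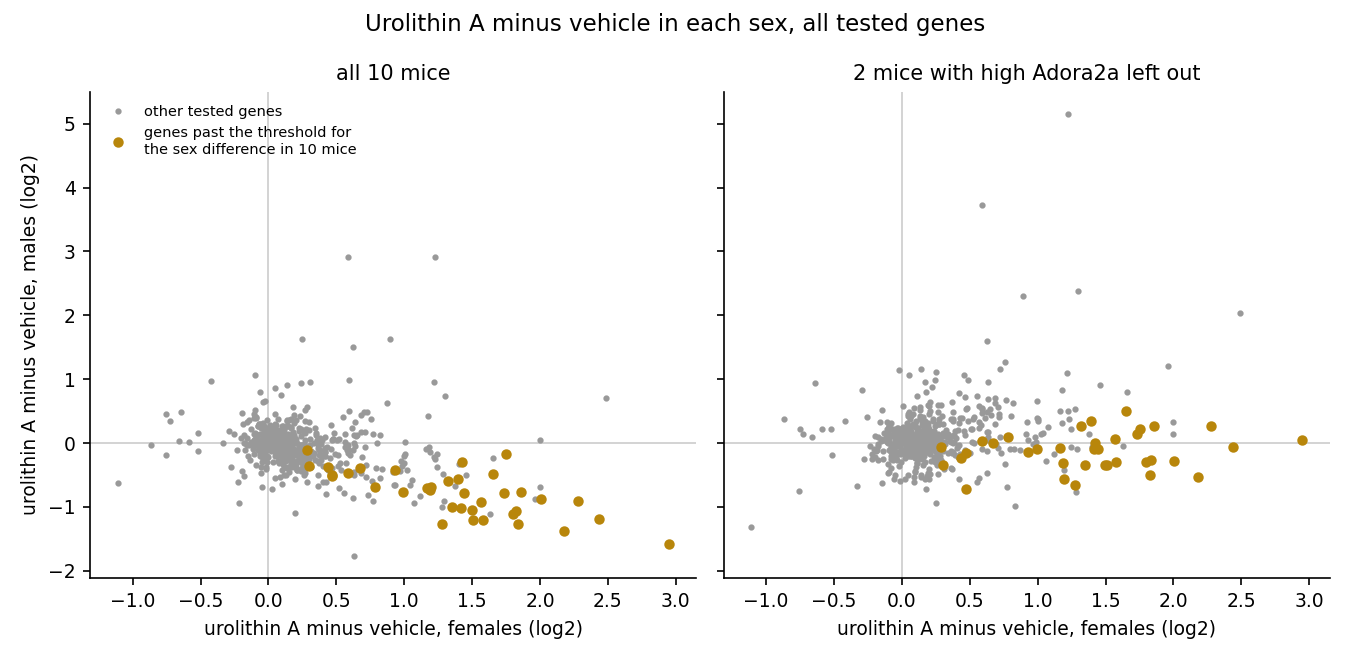
Difference between urolithin A and vehicle in females (horizontal) and in males (vertical) for each of the 619 tested genes, in log2 units, with all 10 mice (left) and without the 2 mice high in Adora2a (right). Gold points are the 36 genes past the threshold for the sex difference in the 10 mice. Their median in males is -0.77 on the left and -0.10 on the right. Their positions in females cannot move, because both mice left out are males.

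The mean of the 8 microglia markers shows the pattern in 1 value per mouse. Vehicle females stood at 7.18, 7.27 and 7.33 and treated females at 8.58 and 8.94. Vehicle males stood at 7.78 and 9.35 (replicates 4 and 5), and treated males at 7.88, 7.71 and 7.38 (replicates 1, 3 and 4). The 2 treated females and vehicle replicate 5 thus formed the upper range, and the other 7 mice lay between 7.18 and 7.88. Wild-type mice had 7.24, 7.20, 7.96 and 7.36, and the highest of them, replicate 3, was also the wild-type mouse with high Ttr (12.62). Of the 2 treated females, replicate 5 was high in Ttr (12.07) and replicate 2 was not (6.08), while the microglia mean was in the upper range in both. Aspa, a gene of oligodendrocytes, stood at 8.49 and 9.50 in the treated females, 8.15 to 8.69 in the vehicle females and 10.62 in vehicle replicate 5, and its part in these results was not tested.

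**Figure D5:**
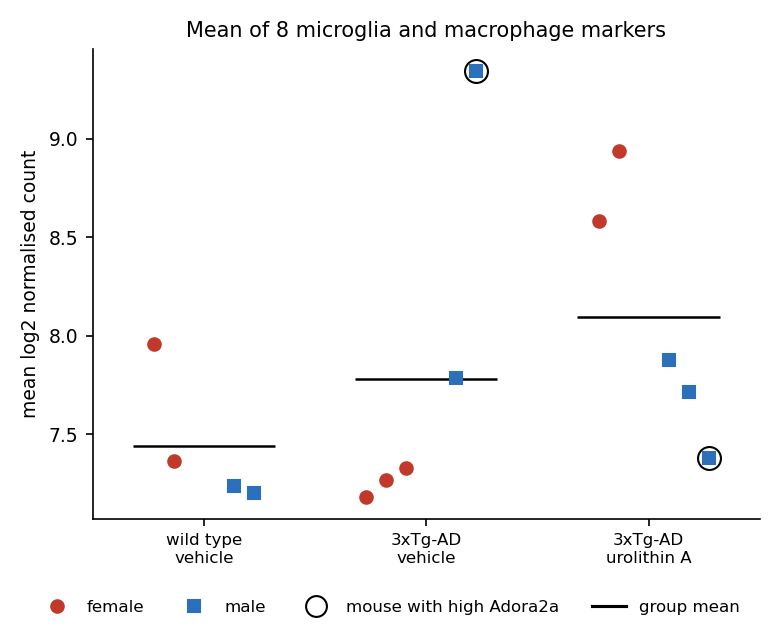
Mean of the 8 tested microglia and macrophage markers in each mouse (log2 of normalised counts), with females as circles, males as squares and group means as lines. The treated females (8.58 and 8.94) lie above the vehicle females (7.18 to 7.33), and the ringed vehicle male has the highest value (9.35).

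The promoters of genes that moved together were searched for GAGGAAGT and its core GAGGAA on both strands, forms of the site bound by PU.1, a transcription factor of myeloid cells. The window was the 250 bases before the start of the gene, from a RefSeq table of promoter sequences of build GRCm38.p6, in which 26 of the 36 genes of the sex difference were matched. GAGGAA, which every GAGGAAGT contains, was found in 9 of these 26 (34.6%), in 26.0% of the other tested genes and in 25.9% of all promoters of the table. GAGGAAGT was found in 2 of 26 (7.69%), in 2.77% of the other tested genes and in 2.79% of all promoters. The promoters of these 2 genes, Bcl2a1a (chr9:88956670-88956919, plus strand) and Tlr1 (chr5:64933559-64933808, minus strand), are shown 5′ to 3′ with GAGGAAGT in capitals. Tlr1, a Toll-like receptor gene, rose in females by 1.5, from 2.78, 3.47 and 3.42 to 4.17 and 5.27. The vehicle values lie below the normalised count of 20 used as the filter. A match describes the letters of the sequence only.
Bcl2a1a: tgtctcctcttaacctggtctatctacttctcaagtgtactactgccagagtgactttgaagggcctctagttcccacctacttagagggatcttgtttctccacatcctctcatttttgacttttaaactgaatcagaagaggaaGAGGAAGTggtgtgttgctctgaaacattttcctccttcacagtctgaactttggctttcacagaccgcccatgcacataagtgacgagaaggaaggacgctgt
Tlr1: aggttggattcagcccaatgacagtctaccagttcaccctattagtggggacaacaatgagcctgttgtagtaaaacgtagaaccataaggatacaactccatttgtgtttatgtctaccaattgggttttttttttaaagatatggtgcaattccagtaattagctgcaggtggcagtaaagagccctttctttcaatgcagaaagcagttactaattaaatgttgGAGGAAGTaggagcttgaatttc

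Across all lists with at least 3 tested genes, 26 of 27 had a median difference above 0 over the 10 mice, beside the 0.07 of all tested genes. With each mouse centred on its own median the number was 12, so the direction of most of these small medians depends on the scaling. The lists with the largest medians were choroid plexus (5 genes, 1.2), antigen presentation (8 genes, 0.52), disease-associated microglia (4 genes, 0.38) and microglia and macrophages (8 genes, 0.36), with 0 members past the threshold over all mice in each. Mitochondrial respiration had a median of 0.09 over 32 genes, glycolysis 0.07 over 20 and the pyruvate and TCA cycle group 0.06 over 17. Trp53, the p53 gene, and Nfe2l2, the gene of the antioxidant regulator NRF2, differed by 0.14 ± 0.17 and 0.32 ± 0.30, and Glul by -0.05 ± 0.08. Leaving out 1 mouse moved Trp53 between 0.02 (without vehicle replicate 3) and 0.27 (without vehicle replicate 5), and Nfe2l2 between 0.12 (without vehicle replicate 1) and 0.56 (without vehicle replicate 5).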

How the data were processed

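RNA of each hippocampus was hybridised to an nCounter metabolic pathways panel. The deposited values are log2 of normalised counts, which the authors made with nCounter Advanced Analysis per the labels of the series; background correction, normalization genes and software version were not stated in the labels. The deposited table has 768 rows, 20 of them without values. Low values lie at log2 of whole numbers plus 1 constant per mouse (at least 99.6% within 0.0125 log2 for counts up to 40), which gave the inferred totals. Of the symbols, 747 matched the RefSeq gene table, which is separate from the promoter table, and 1 did not.

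Genes with a normalised value of at least 20 in at least 4 of the 23 samples were tested (619, with 129 left out). Under R 4.3.3, limma 3.58.1 (eBayes with a mean-variance trend) fitted 1 mean per group, and for the sexes 1 mean per group and sex, to all 23 samples, which share 1 estimate of the spread. Tests were two-sided, adjusted by Benjamini-Hochberg over the 619 genes at a threshold of 0.05. The members, the lists of genes and the naming rule were chosen with earlier results of these data known. The rule named genes past the threshold (up to 15), the 20 of smallest p where fewer than 10 passed, the 5 largest rises and falls, the 3 members of smallest p of each list described, and fixed genes such as Mapt and Apoe. Adora2a, Ptpn5, Hmox1, Tlr1 and the genes listed over 8 mice were added after values were seen. A few genes are not reported here.

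Replicate numbers did not pair the mice: same-numbered treated and vehicle mice had correlated deviations from -0.06 to 0.34 over 5 pairs, and 2 treated mice correlated best with their own number. Alternatives were other scalings, filters, moderation, array weights, covariates, a replicate block and leaving out each mouse. Scaling on 4 reference genes, permutation within each sex, and leaving out both mice high in Adora2a were chosen after seeing the data. The fits were tested on simulated data. Python 3.11.15, pandas 2.3.3, NumPy 2.4.6 and matplotlib 3.10.9 were also used.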

Additional observations from a re-analysis of the deposited data

Results flagged for a closer look

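In 9 of the 128 groups of 5 mice examined, 1 mouse lay apart from the other 4 by more than 0.71 of the whole range, where chance gives about 1 in 20 groups. Vehicle replicate 5 was the high mouse for Apoe (13.99), Ctsz (10.47), H2-K1 (9.30), Ly86 (10.18), Ptges (5.43) and the mean of the microglia and macrophage markers (9.35). Vehicle replicate 3 was the high mouse for Ttr (11.28). Slc2a5, a fructose transporter gene of microglia, had 1 low mouse in each group, vehicle replicate 4 (4.61) and treated replicate 3 (4.06). Its females stood at 5.87, 5.84 and 5.98 on vehicle and at 5.44 and 5.31 on urolithin A, the reverse of the order of the microglia markers.

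The effect of urolithin A differed between females and males in 36 genes by limma's test of the difference. The 15 of smallest p, with the effect in females minus that in males in log2 units, were Bcl2a1a (3.63), Cd68 (2.91), Tlr2 (3.56), Tbxas1 (2.35), Itgb2 (3.10), Aspg (2.89), Csf3r (2.72), Cd84 (2.79), Gusb (1.36), Ptprc (2.49), Runx1 (2.22), Cd274 (1.93), Tlr7 (1.72), Cd14 (2.62) and Ctss (2.44). Without vehicle replicate 5 and treated replicate 4, the mice high in Adora2a, Bcl2a1a was the 1 gene that passed.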

How the results depend on the processing

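Over all 10 mice the count of genes past the threshold was 0 in each alternative run except with array weights, where it was 1 (Naglu), and 0 in each fit without 1 mouse. In females the 31 genes became 3 on 4 reference genes, 17 on the inferred total, 5 with quantile normalization (3 higher, 2 lower), 58 with array weights and 1 with only the AD mice, and ranged from 0 to 43 when 1 mouse was left out. In males the 0 genes ranged from 0 to 93 in that way. The 36 genes of the sex difference became 23 on 4 reference genes, 19 with quantile normalization (16 higher, 3 lower), 19 with array weights, 10 with only the AD mice, 1 without both mice high in Adora2a and 0 by exact permutation within each sex (89 at an unadjusted p under 0.05), and ranged from 0 (without treated replicate 5) to 125 (without vehicle replicate 4). With the replicate number as a block, which does not pair these mice, the counts were 0 over all mice, 15 in females and 13 for the difference (12 higher, 1 lower). Genes whose mice did not overlap between groups numbered 2 with median centring, 1 on the inferred total, 3 with quantile normalization, 1 with no filter, 57 without both mice high in Adora2a and 0 to 19 without 1 mouse (6, 5, 2, 3 and 1 without treated replicates 1 to 5, and 4, 0, 4, 3 and 19 without vehicle replicates 1 to 5). Lists with a median above 0 numbered 12 with median centring, 15 with quantile normalization and 24 to 26 without 1 mouse. Sqstm1 turned to -0.024 with median centring and -0.008 with quantile normalization. Glul turned to 0.0233 with array weights and 0.025 without both mice high in Adora2a, and ranged from -0.1025 to 0.0075 (without vehicle replicate 5) without 1 mouse. Apoe over all mice turned to -0.058 with median centring, -0.0215 on 4 reference genes, -0.024 on the inferred total, -0.24 with quantile normalization and -0.015 with Ttr as a covariate, and ranged from -0.09 to 0.2685 without 1 mouse. The cause of these changes was not tested, and fits without a treated female leave 1 treated female, assumed to vary like the other groups. Scaling on the panel's 20 reference genes was not run because they hold no value here, and covariates and least squares were not run by sex.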
